A study of Mus musculus with 3 samples.

Results

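The genes described here are 10 members and regulators of the fibroblast growth factor (FGF) pathway: the ligand gene Fgf4, the receptor gene Fgfr1, the FGF-binding protein gene Fgfbp1, the Sprouty genes Spry1, Spry2 and Spry4, the Spred genes Spred1 and Spred2, and the ETS factor genes Etv4 and Etv5. They were taken by name, and every probe set that the platform annotation pairs with them was used, which gave 33 of the 45101 probe sets of the array and 10 of its 18193 named genes. All 33 are paired with 1 gene alone. Expression was measured on Affymetrix arrays in undifferentiated R1 cells, an established mouse embryonic stem (ES) cell line, after 4 h with BMP4 at 20 ng/ml, after 4 h with noggin at 100 ng/ml, and in cells left untreated, for which the labels used here give no time. BMP4, a bone morphogenetic protein, acts through SMAD transcription factors, and noggin sequesters BMPs outside the cell. Each condition had 1 array, so no value has a replicate error, no test was possible, and the number of arrays limits the precision. Values are log2 expression values, on which a difference of 1 is a 2-fold difference.

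FGF ligands bind receptor tyrosine kinases together with heparan sulfate chains of the cell surface, and the activated receptors switch on the RAS-RAF-MEK-ERK kinase cascade. Mouse ES cells secrete FGF4 and respond to it, and this autocrine ERK signal is known for readying them to leave the pluripotent state, which BMP signals together with LIF help to maintain. ERK activity in turn raises the transcripts of its own inhibitors, among them Sprouty, Spred and dual-specificity phosphatase genes, and of the PEA3-type ETS factors, so these genes are commonly read as an output of the pathway.

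Of 7 genes known to follow BMP and looked at as a check of the labels, all 7 were higher with BMP4 than without treatment. With noggin 4 were lower, 2 higher (Smad7 by 0.16 and Msx2 by 0.063) and 1 equal, with a median of −0.0094. A second Smad7 probe set gave −0.19 for noggin and 0.13 for BMP4 against untreated. Id1 measured 11.54 with BMP4, 8.59 with noggin and 8.78 without treatment, Id2 8.90, 4.31 and 4.80, and Id3 9.16, 5.31 and 5.58, in the same order. The 10 ES cell markers looked at were all above a floor of 3.44, which was the median over every value in the table, and their summed linear level was 18427 with BMP4, 17475 with noggin and 17752 without treatment. Of 11 fibroblast markers, which feeder cells would carry, 8 were above the floor, and Col1a1 was not. The sum of all 11 was 1344 with BMP4, 1369 with noggin and 1351 without treatment, most of it from Vim, at 10.15, 10.16 and 10.14. Of the 8, 2 were higher, 3 lower and 3 equal with BMP4 against untreated, and all 3 lower ones passed the yardstick of probe set disagreement described below. Over all 11594 genes above the floor, 24.8% were higher and 35.6% lower with BMP4, and 26.8% higher and 36.1% lower with noggin. Past the yardstick on the lower side with BMP4 were 9.7%. S100a4 measured 4.37 with BMP4, 4.62 with noggin and 4.93 without treatment, and Postn 3.00, 3.55 and 3.32 in the same order. Postn was thus above the floor with noggin alone, so its place among the lower genes rests on values below the floor. Between BMP4 and noggin 0 of the 8 fibroblast markers were higher, 5 lower and 3 equal, against 33.1%, 34.1% and 32.9% of all genes. The lower ones had the direction of Fgfbp1 below, and their part in that result was not tested. Of 8 trophoblast markers, 6 were above the floor, and Cdx2 and Elf5 were not. Of the 6, 3 were higher, 2 lower and 1 equal with BMP4, with a median of 0.016, and 1 was higher, 3 lower and 2 equal with noggin. Their sum was 406 with BMP4, 328 with noggin and 347 without treatment, which followed Eomes, at 6.38, 5.81 and 5.92, and Tfap2c, at 7.48, 6.99 and 7.10. The second Eomes probe set gave 0.11 for BMP4 and −0.074 for noggin against untreated, both within the yardstick. Of 10 primitive endoderm markers, 8 were above the floor, with 3 higher, 3 lower and 2 equal with BMP4, and a sum of 602 with BMP4, 677 with noggin and 614 without treatment. Sox7 measured 4.73 with BMP4, 3.84 with noggin and 3.74 without treatment, and Gata6 5.20, 4.82 and 4.67 in the same order, with its second probe set at 0.90 for BMP4 and 0.44 for noggin against untreated. Of 8 neural markers, 4 were above the floor, with 2 higher and 2 lower with BMP4, and a sum of 296 with BMP4, 302 with noggin and 297 without treatment. Ncam1 was at −0.42 with BMP4 and −0.35 with noggin, where its other probe sets gave between −0.069 and 0.00 and between 0.00 and 0.13. Pax6 was at −0.37 with BMP4 and 0.00 with noggin. Eomes, Tfap2c, Sox7 and Gata6 were highest with BMP4, as was Spry4 below, while Pax6 was lowest with BMP4, as was Fgfbp1. Pax6, at 3.48 with BMP4, lay near the floor. Other trophoblast and neural markers went otherwise. Krt8 was at −0.12 and Ascl2 at −0.080 with BMP4 against untreated, both within the yardstick. Tubb3 measured 7.44 with BMP4, 7.43 with noggin and 7.36 without treatment, and Nes 5.76, 5.90 and 5.73 in the same order. Other primitive endoderm markers went the other way from Sox7 and Gata6. Lama1 measured 7.61 with BMP4, 8.05 with noggin and 7.78 without treatment, Col4a1 7.76, 7.89 and 7.81, and Col4a2 5.98, 6.18 and 6.11. Each was lowest with BMP4 and highest with noggin, the order of Fgfbp1, Col4a1 by less than the yardstick. The part of these cell types in either result was not tested. Each array measures a whole culture, so a difference in RNA per cell and a difference in the make-up of the culture cannot be told apart. All 24 probe sets of the poly-A spikes, RNAs added before labelling, were lower with BMP4 than without treatment, with a median difference of −0.63. The median was −0.18 for noggin against untreated. All 24 were also lower with BMP4 than with noggin, with a median of −0.46. The bearing of these spikes on the values below was not tested. The median difference over the 11594 genes with a value above the floor was 0.00 in each comparison. As a yardstick in place of replicate error, the disagreement between probe sets of 1 gene was used. Its SD within genes, from 13666 probe sets of 5139 genes, was 0.13 in the BMP4 comparison with untreated, 0.11 in the noggin comparison with untreated and 0.16 between BMP4 and noggin. It says nothing of how far cultures differ.

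All 10 genes were above the floor on every array by their representative probe set, the one with the highest mean. Of the 33 probe sets, 30 were above it on at least 1 array, and the other 3 were 1 of Fgf4 and 2 of Spred1. Several probe sets of a gene were designed from the same source sequence, so they are not independent: the 8 of Spred1 came from 4 sequences, the 4 of Fgf4 from 2, the 4 of Spry4 from 3 and the 3 of Etv5 from 2. Of the 33, 8 had exactly the same value on all 3 arrays, which the median polish of the authors' RMA summary can give with few arrays. The same held for 26.1% of all probe sets on the array.

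**Figure D1:**
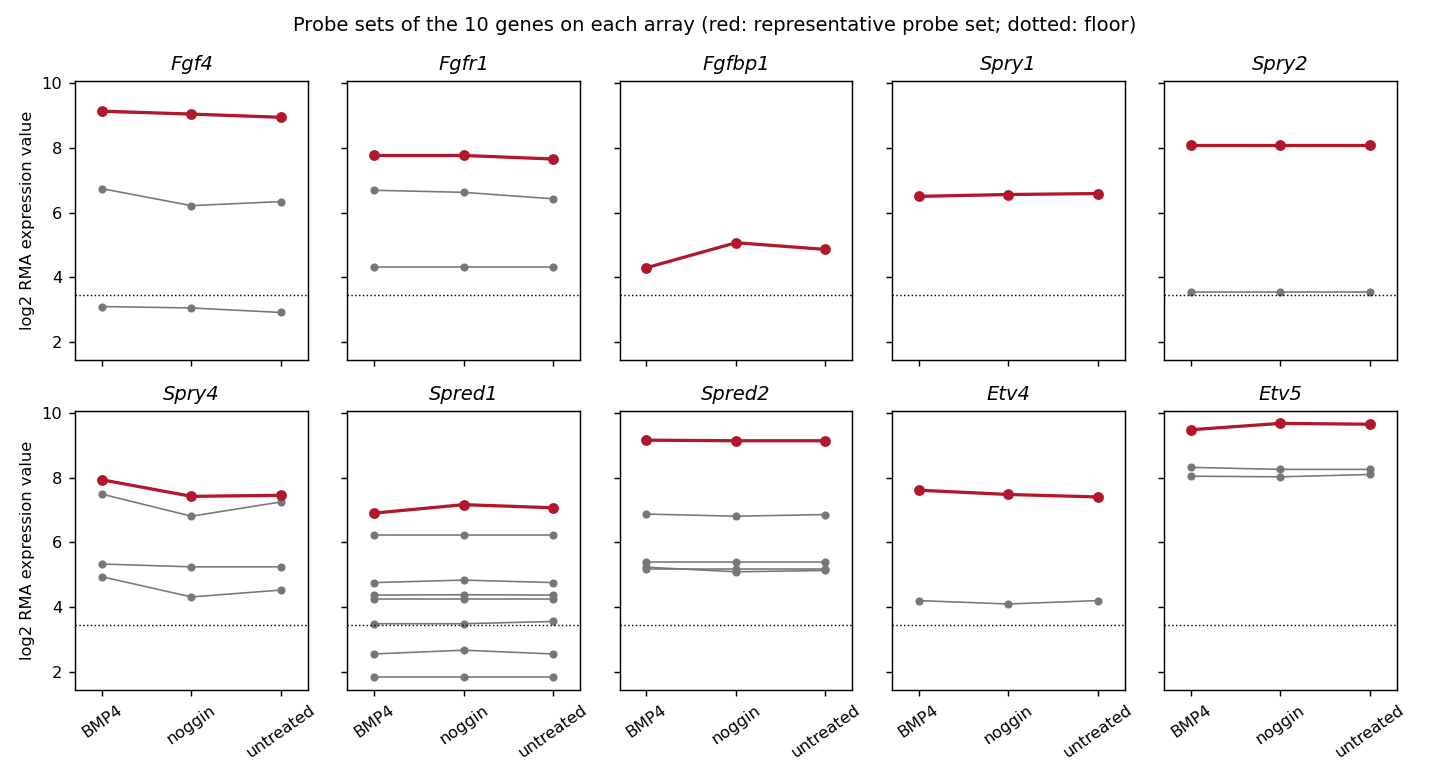
Log2 RMA expression values (vertical axis) of the 33 probe sets of the 10 genes on the BMP4, noggin and untreated arrays (horizontal axis), 1 line per probe set, with the representative probe set in red and the floor of 3.44 dotted; a second Fgf4 probe set lies under the red line. Fgfbp1 was lowest with BMP4 at 4.30, against 4.86 untreated, and the 4 lines of Spry4 are each highest with BMP4.

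Fgf4 and Fgfbp1 are the secreted members, and their promoter windows are printed because Fgf4 was higher with BMP4 by every probe set while Fgfbp1 had the largest difference of the 10 genes. The windows run from 250 bases before to 50 bases after the RefSeq transcription start (build GRCm38.p6), 5′ to 3′ on the gene's strand. Capitals mark motifs found on either strand, none of which overlap in these windows. The letters TATAAA were searched as the TATA motif, and GGCGCC as a GC-rich element that BMP-activated SMADs can bind. The letters CAGAC were searched as the SMAD box, and CCGGAA as a motif of ETS factors such as Etv4 and Etv5.
Fgf4, chr7:144861136-144861435, plus strand: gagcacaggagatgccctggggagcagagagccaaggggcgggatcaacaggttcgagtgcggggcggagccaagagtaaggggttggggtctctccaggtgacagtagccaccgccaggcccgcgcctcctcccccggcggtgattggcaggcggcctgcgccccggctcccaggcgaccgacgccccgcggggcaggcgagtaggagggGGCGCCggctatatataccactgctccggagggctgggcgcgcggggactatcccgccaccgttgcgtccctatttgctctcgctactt
Fgfbp1, chr5:43981750-43982049, minus strand: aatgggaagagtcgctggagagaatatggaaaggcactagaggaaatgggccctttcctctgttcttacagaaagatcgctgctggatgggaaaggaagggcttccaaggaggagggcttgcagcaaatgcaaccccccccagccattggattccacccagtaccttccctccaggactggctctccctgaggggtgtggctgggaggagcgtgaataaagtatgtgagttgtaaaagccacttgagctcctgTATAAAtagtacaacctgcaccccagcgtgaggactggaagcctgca
The Fgf4 window holds GGCGCC once and the Fgfbp1 window TATAAA once. That TATAAA falls within the 50 bases after the annotated start. The Fgf4 window holds the letters tatatata before its start, which the search for TATAAA does not count. The search thus does not show which of these promoters uses a TATA box. Of the 10 genes, 7 had such a window in the RefSeq table (Fgf4, Fgfbp1, Spry1, Spry2, Spred1, Spred2 and Etv5), with 8 windows in all. GGCGCC was in 4 of the 8, those of Fgf4, Spred1, Spred2 and 1 of the 2 of Etv5, against 11.9% of the 32817 promoter windows in the table. CCGGAA was in 1, that of Spry2, against 14.9%, and TATAAA in 1, against 13.6%. CAGAC was in 0 of the 8, against 49.6%. These letters are a description of the windows and show no binding.

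Fgf4, the ligand that ES cells make themselves, was higher with BMP4 than without treatment by each of its 4 probe sets. The representative probe set 1420085_at measured 9.14 with BMP4, 9.05 with noggin and 8.95 without treatment, which puts BMP4 1.14-fold and noggin 1.07-fold above untreated. The probe set 1420086_x_at, designed from the same sequence, gave 9.11, 9.06 and 8.96. The probe set 1450282_at, from the other source sequence, measured 6.74 with BMP4, 6.22 with noggin and 6.34 without treatment, so here noggin was below the untreated array, and BMP4 was 1.44-fold above noggin. The remaining probe set, 1449729_at, lay below the floor, at 3.10, 3.05 and 2.91. The BMP4 difference of Fgf4 thus ran from 0.15 to 0.40 over the probe sets above the floor, beyond the yardstick of 0.13 in each, while the noggin difference ran from −0.13 to 0.10 and had no single sign.

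Fgfr1, which encodes the main FGF receptor of mouse ES cells, had the same value of 7.77 with BMP4 and with noggin by its representative probe set, against 7.66 without treatment. The probe set 1425911_a_at measured 6.69 with BMP4, 6.63 with noggin and 6.43 without treatment, and 1436551_at was at 4.33 on all 3 arrays. Both treatments stood on the same side of the untreated array for this receptor. The suffixes of the first probe sets, _s_at and _a_at, mark probes that match several transcripts.

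Fgfbp1 encodes a secreted carrier that releases FGFs from heparan sulfate in the matrix. Its single probe set, 1419086_at, measured 4.30 with BMP4, 5.07 with noggin and 4.86 without treatment. It was lowest with BMP4 and highest with noggin, with differences from the untreated array of −0.57 for BMP4, 1.48-fold lower, and 0.21 for noggin, 1.16-fold higher. BMP4 against noggin gave −0.77, or 1.71-fold lower. Among the 11594 genes above the floor, Fgfbp1 held rank 9 from the lowest for BMP4 minus untreated, rank 6 from the lowest for BMP4 minus noggin and rank 220 from the highest for noggin minus untreated. With no other probe set, no value within these data checks this difference.

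Spry4 had the largest differences of the 3 Sprouty genes. Sprouty proteins are made in response to ERK activity and dampen signalling from receptor tyrosine kinases to RAS. The representative probe set 1440867_at measured 7.93 with BMP4, 7.42 with noggin and 7.45 without treatment, 1.40-fold higher with BMP4 than without. The probe set 1445669_at gave 7.49 with BMP4, 6.81 with noggin and 7.25 without treatment, and 1422020_at gave 4.93, 4.31 and 4.52 in the same order. The fourth, 1422021_at, gave 5.33 with BMP4 and 5.24 on both other arrays. BMP4 was thus the highest array for all 4 probe sets, with differences from untreated between 0.087 and 0.48. The noggin differences were −0.031, −0.44, −0.21 and 0.00, so 3 of the 4 probe sets were lower with noggin, although the representative one was lower by less than the yardstick of 0.11. For BMP4 minus noggin, 1445669_at gave 0.68 and 1422020_at 0.62, both at least 1.5-fold, while the representative probe set gave 0.51 and 1422021_at 0.087. By its representative probe set Spry4 held rank 44 from the highest for BMP4 minus untreated and rank 66 for BMP4 minus noggin.

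The other Sprouty genes had smaller differences or none. Spry1 measured 6.50 with BMP4, 6.56 with noggin and 6.59 without treatment by its single probe set, a BMP4 difference of −0.088, within the yardstick. Spry2 had exactly 8.08 on all 3 arrays, and its second probe set, at 3.55, was also equal on all 3. Exact equality can come from the summary of few arrays and does not show that the transcript had the same level.

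Spred1 and Spred2 encode Sprouty-related proteins with an EVH1 domain that block activation of RAF by RAS. Spred1 measured 6.90 with BMP4, 7.16 with noggin and 7.07 without treatment by its representative probe set, 1423160_at, so BMP4 lay below untreated by a difference of −0.17 and noggin above it by 0.097. None of the other 5 Spred1 probe sets above the floor had a BMP4 difference as large. Of these, 4 were equal to untreated, among them 1423161_s_at from the same source sequence at 6.22 on all 3 arrays, and 1 was at −0.069. Spred2 measured 9.16 with BMP4 and 9.14 on both other arrays. Its 5 probe sets had BMP4 differences between 0.00 and 0.10 and noggin differences between −0.051 and 0.00, all within the yardstick.

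Etv4 and Etv5, PEA3-type ETS transcription factors that FGF-ERK signalling induces in many tissues, stood on opposite sides of the untreated array with BMP4. Etv4 measured 7.61 with BMP4, 7.48 with noggin and 7.40 without treatment, a BMP4 difference of 0.21. Its second probe set gave 4.20 with BMP4, 4.09 with noggin and 4.20 without treatment, so the BMP4 difference there was 0.00. Etv5 measured 9.48 with BMP4, 9.68 with noggin and 9.65 without treatment, a BMP4 difference of −0.17. Its other probe sets gave 8.32, 8.25 and 8.25, and 8.04, 8.02 and 8.10, in the same order of arrays, with BMP4 differences of 0.062 and −0.054. For both genes the representative probe set passed the yardstick of 0.13 and no other probe set did.

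**Figure D2:**
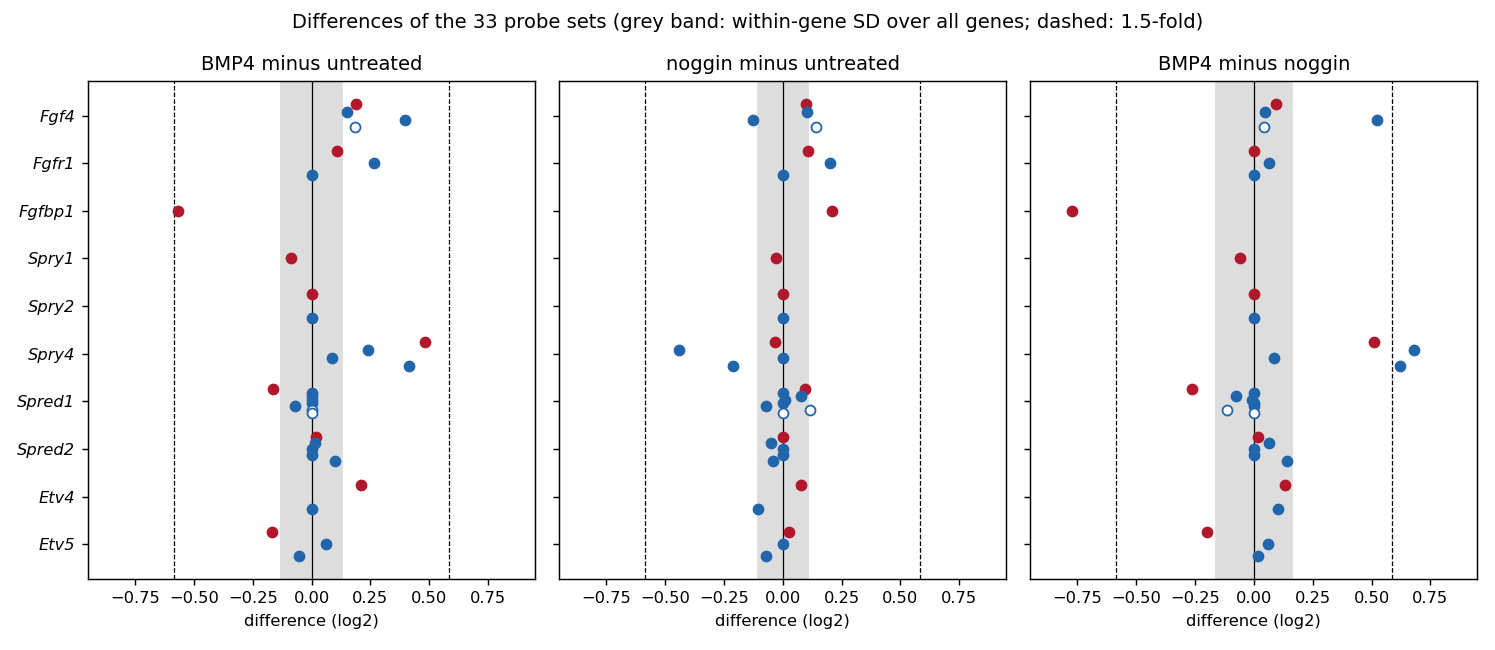
Log2 differences (horizontal axis) of the 33 probe sets by gene (vertical axis) for BMP4 minus untreated, noggin minus untreated and BMP4 minus noggin; red marks the representative probe set, open symbols lie below the floor on every array, the grey band is the within-gene SD of 0.13, 0.11 and 0.16, and dashed lines mark 1.5-fold. Spry4 lies right of 0 with BMP4 by all 4 probe sets and Fgfbp1 left of it, and the probe sets of Fgf4 and Spry4 spread widely in the right panel.

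Counted over the 10 genes, BMP4 minus untreated was above 0 for 5, below 0 for 4 and 0 for 1, with a median of 0.0091. Over all 11594 genes, 24.8% were higher, 35.6% lower and 39.6% equal, with a median of 0.00. Beyond the yardstick of 0.13 were 3 genes on the higher side, Spry4, Etv4 and Fgf4, against 5.8% of all genes, and 3 on the lower side, Fgfbp1, Etv5 and Spred1, against 9.7%. With all probe sets of a gene averaged, Etv4 at 0.10, Etv5 at −0.054 and Spred1 at −0.029 no longer passed, which left 2 genes on the higher side and 1 on the lower. None of the 10 differed at least 1.5-fold, against 0.276% of all genes (32 genes). The 10 genes were listed with results of these arrays known, so their share is a description and is not set against chance.

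Noggin minus untreated was above 0 for 6 of the 10 genes, below 0 for 2 and 0 for 2, with a median of 0.052. Over all genes 26.8% were higher, 36.1% lower and 37.0% equal, with a median of 0.00. Fgfbp1 at 0.21 and Fgfr1 at 0.108 passed the yardstick, the second of them barely, against 7.67% of all genes on the higher side. None passed it on the lower side, against 11.6%. With probe sets averaged, Fgfr1 at 0.10 no longer passed and Spry4 at −0.17 passed on the lower side. None of the 10 differed at least 1.5-fold, against 0.0776% of all genes (9 genes).

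BMP4 against noggin sets the array with added ligand beside the array with the antagonist, and it shares its arrays with both comparisons above. Of the 10 genes, 4 were higher with BMP4, 4 lower and 2 equal, with a median of 0.00. Over all genes 33.1% were higher, 34.1% lower and 32.9% equal. Fgfbp1 was the 1 gene at least 1.5-fold different, against 0.518% of all genes either way and 0.138% on the lower side. Past the yardstick of 0.16 were Spry4 at 0.51, against 8.05% of all genes on the higher side, and Fgfbp1 at −0.77, Spred1 at −0.26 and Etv5 at −0.20, against 8.52% on the lower side. With probe sets averaged, Spry4 and Fgf4 passed on the higher side and Fgfbp1 alone on the lower. By probe set, 3 of the 30 above the floor passed 1.5-fold, 1 of Fgfbp1 and 2 of Spry4, against 1.12% of all 20122.

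**Figure D3:**
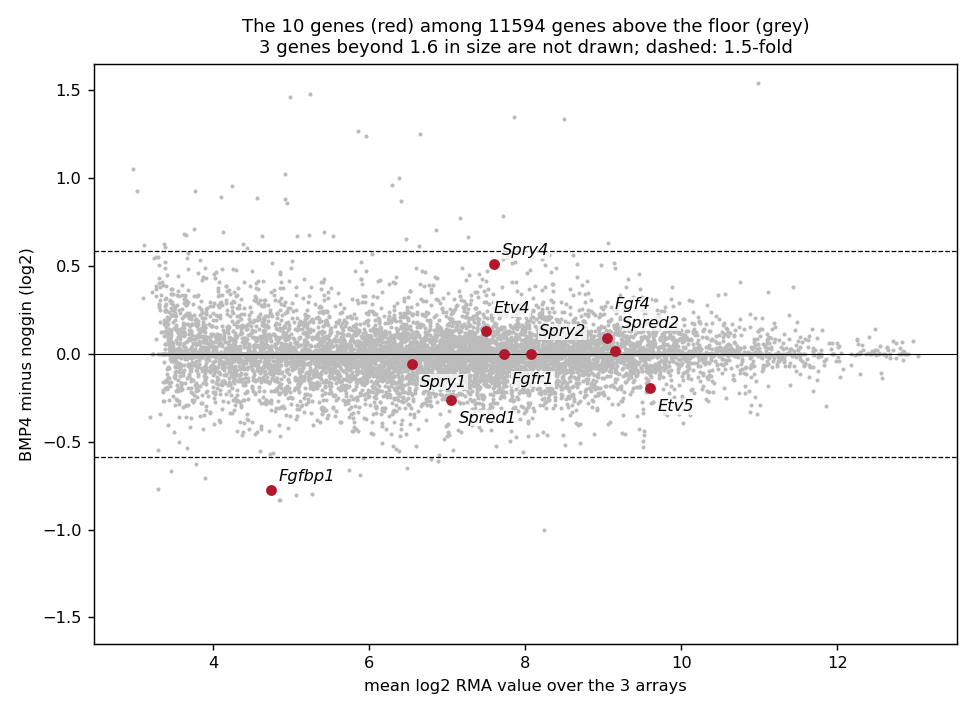
BMP4 minus noggin difference in log2 (vertical axis) against the mean log2 RMA value over the 3 arrays (horizontal axis) for 11594 genes above the floor (grey) and the 10 genes (red), with dashed lines at 1.5-fold. Genes far beyond the dashed lines, among them Id1, Id2 and Id3, are not drawn. Fgfbp1 lies below the lower line at −0.77, Spry4 just under the upper one at 0.51, and the other 8 genes lie between −0.26 and 0.13.

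The genes whose pair of differences from the untreated array lay nearest to that of a member were looked up for Spry4 and Fgfbp1, the members with the largest BMP4 difference in each direction. Nearness was the Euclidean distance over these 2 differences, which rest on the same 3 arrays. Nearest to Spry4 were Prpf4 at a distance of 0.0095, Grk3 at 0.015 and Bambi at 0.030. Bambi, a BMP pseudoreceptor, measured 6.12 with BMP4, 5.65 with noggin and 5.66 without treatment. Nearest to Fgfbp1 were Stard6 at 0.095, Ank2 at 0.14 and Usp17la at 0.14. Stard6 measured 3.08 with BMP4, below the floor, 3.75 with noggin and 3.55 without treatment. Ank2 measured 2.88, 3.65 and 3.34 in the same order, above the floor with noggin alone.

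Other genes of the pathway were taken from lists by function. Beside the list counts stand the shares over all 11594 genes. These were 24.8% higher and 35.6% lower with BMP4, and 26.8% higher and 36.1% lower with noggin. Of 21 further FGF ligand genes, 5 were above the floor, and with BMP4 4 were higher, 0 lower and 1 equal, with a median of 0.068. Fgf17 measured 4.83 with BMP4, 4.56 with noggin and 4.58 without treatment. With noggin 1 was higher, 3 lower and 1 equal, with a median of −0.019, and Fgf15, an FGF ligand of the embryo, measured 4.30 with BMP4, 3.91 with noggin and 4.27 without treatment. Fgf2, Fgf5 and Fgf8 were below the floor on every array.

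Of 10 other receptor, co-receptor and binding protein genes, 8 were above the floor, with 4 higher and 1 lower with BMP4 and 5 higher and 3 lower with noggin, and medians of 0.0058 and 0.023. Fgfbp3, another secreted FGF-binding protein gene, measured 3.48 with BMP4, 2.56 with noggin and 3.02 without treatment, so it was highest with BMP4 where Fgfbp1 was lowest. Its BMP4 minus noggin difference was 0.92, 1.90-fold higher, but 2 of its 3 values lay below the floor. The receptor gene Fgfr2 measured 4.30 with BMP4, 4.45 with noggin and 4.21 without treatment. Flrt3, a membrane protein that binds FGF receptors, measured 3.44 on both treated arrays and 3.65 without treatment. Among 17 heparan sulfate genes above the floor, 7 were higher and 7 lower with BMP4, and 10 were higher and 2 lower with noggin, with medians of 0.00 and 0.0027. With noggin only 1 of the 17 passed the yardstick on the higher side and 2 on the lower, against 7.67% and 11.6% of all genes. Sulf1, an extracellular sulfatase, gave −0.23 in both comparisons with untreated, although its second probe set gave −0.11 with BMP4 and 0.00 with noggin. Hs6st1, a heparan sulfate 6-O-sulfotransferase, was at −0.11 with BMP4 and 0.24 with noggin.

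Of 23 genes of the kinase cascade below the receptor, 16 had a probe set of their own, all above the floor, and the other 7 were not analysed here. Of the 16, 4 were higher, 9 lower and 3 equal with BMP4, and 7 higher, 5 lower and 4 equal with noggin, at medians of −0.025 and 0.00. Ksr1, a scaffold of the RAF-MEK-ERK cascade, was at 0.42 with BMP4 and 0.29 with noggin, but its other 2 probe sets above the floor gave between −0.010 and 0.00 and between −0.098 and 0.00. Araf, a RAF kinase gene, was at −0.12 with BMP4 and −0.24 with noggin, where its other probe set gave 0.00 in both.

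Of 9 further ERK feedback inhibitors above the floor, 5 were higher with BMP4, 0 lower and 4 equal, with a median of 0.0015. That median was 0.13 with probe sets averaged, 0.12 with plain-suffix probe sets alone and 0.21 with a higher floor. The median of BMP4 minus noggin was 0.20. The phosphatase gene Dusp9 measured 8.75 with BMP4, 7.40 with noggin and 7.42 without treatment, and Dusp5 measured 7.09, 6.09 and 5.98 in the same order. Dusp6, the cytoplasmic ERK phosphatase and a common readout of FGF signalling, measured 7.63 with BMP4, 6.97 with noggin and 7.21 without treatment, the same order of arrays as Spry4, and its BMP4 minus noggin difference was 0.66, 1.58-fold higher. Dusp4 measured 3.66 with BMP4, 3.29 with noggin and 3.45 without treatment. With noggin 2 of the 9 were higher, 4 lower and 3 equal, with a median of 0.00. Il17rd, which encodes the FGF inhibitor SEF, was equal at 6.81 on all 3 arrays.

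Of 15 early response and ETS-type genes above the floor, which ERK also drives, 4 were higher, 5 lower and 6 equal with BMP4, and 4 higher, 6 lower and 5 equal with noggin, with medians of 0.00, beside the 24.8% higher and 35.6% lower of all genes with BMP4. Egr1, an immediate-early gene, measured 4.30 with BMP4 and 4.51 on both other arrays. Fos measured 4.40 with BMP4, 4.07 with noggin and 4.40 without treatment, and Ier2 measured 9.90, 9.66 and 9.65 in the same order.

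**Figure D4:**
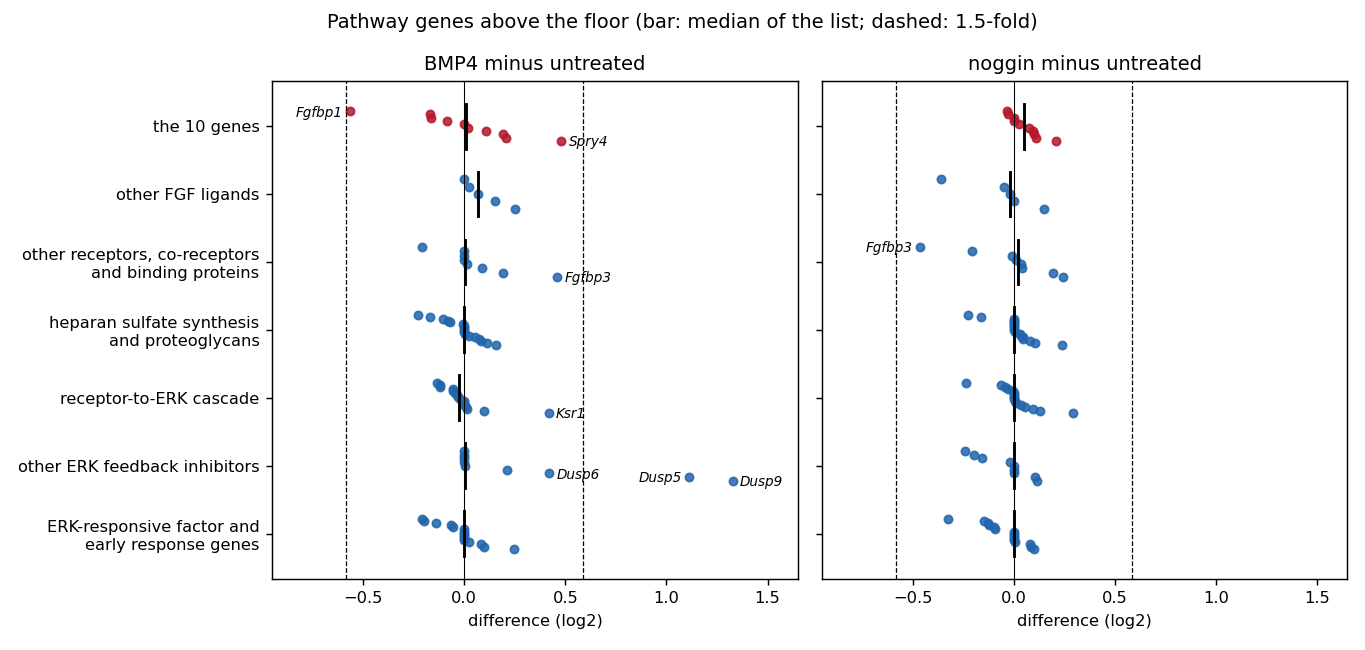
Log2 differences (horizontal axis) for BMP4 minus untreated and noggin minus untreated of the 10 genes (red) and of pathway genes above the floor by list (blue, vertical axis), with the median of each list as a bar, 1.5-fold as dashed lines and genes past 0.4 named. Dusp5 and Dusp9 lie past 1.5-fold with BMP4 at 1.11 and 1.33, and the list medians lie between −0.025 and 0.068.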

How the data were processed

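Expression was measured in 3 samples of R1 mouse ES cells, 1 array each for BMP4, noggin and untreated cells. The authors deposited log2 expression values from RMA (background correction, quantile normalization and median polish), as the submitters' processing notes name it. Version, settings and build are not given in the sources used here. A shift in the RNA content of whole cells would be lost in quantile normalization. Arrays have no read depth.

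Names came from the platform annotation. The Entrez identifiers of all 10 genes matched RefSeq (GRCm38.p6, used for names and promoter sequences). Differences were computed with Python 3.11.15 and pandas 2.3.3 on values as deposited. For each gene, the probe set of highest mean level was used, from those annotated to no other gene, and 11594 of 18193 genes had a value past the floor of 3.44 on some array. Values within 1e-06 count as equal. Size limits were 1.5-fold and 2-fold. The subtraction was run on simulated data with 200 shifted genes, where recovery of the shifts was fixed by how the data were built. That run did not check the choice of probe sets or the floor.

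The members and lists were chosen with earlier results of these data known. The text names all members, and from each pathway list the gene furthest above and below 0 in each comparison with untreated where past 0.2, and those past 1.5-fold in any. Fgf2, Fgf5, Fgf8, Dusp4, Il17rd, and the genes named from the marker and BMP-target lists other than Id1, Id2 and Id3, were chosen after their values were seen. Alternatives were the mean over probe sets, plain-suffix probe sets alone, median-centred or loess-corrected (span 0.3) differences, and other floors and size limits.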

Additional observations from a re-analysis of the deposited data

How the results depend on the processing

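With 1 array per condition, no replicate could be left out. No paired analysis was possible because each condition had 1 array. Of the 10 genes, the number at least 1.5-fold different was the same under 4 alternative settings (mean over probe sets, plain-suffix probe sets, median-centred and loess-corrected differences): 0 between BMP4 and untreated, 0 between noggin and untreated, and 1 between the treatments. At a limit of 2-fold the last count was 0. The median difference over all genes above the floor was 0.00 in each comparison, so median-centring left every difference unchanged. Fgfbp1, the 1 gene counted, has a single plain-suffix probe set, so only the loess correction could change its value. Of 120 member values under these settings, 5 moved by more than the within-gene SD, and the median-centred ones could not move. With probe sets averaged, Spry4 gave 0.31 for BMP4 minus untreated and −0.17 for noggin minus untreated, and Spred1 gave −0.029 for BMP4 minus untreated and −0.058 for BMP4 minus noggin; with plain-suffix probe sets alone, Fgfr1 gave 0.00 for noggin minus untreated. The sign of noggin minus untreated turned with probe sets averaged for Etv4, at −0.014 against 0.077, and Etv5, at −0.015 against 0.027. Past the yardstick with probe sets averaged were, for BMP4 minus untreated, 2 against 3 genes higher and 1 against 3 lower, for noggin minus untreated 1 against 2 higher and 1 against 0 lower, and between BMP4 and noggin 2 against 1 higher and 1 against 3 lower. With plain-suffix probe sets the noggin count was 1 against 2 higher. These follow from which probe sets enter. Ksr1 gave 0.14 for BMP4 minus untreated with probe sets averaged and −0.010 with plain-suffix probe sets. The median of the other ERK feedback inhibitors, 0.0015 for BMP4 minus untreated, was 0.13 with probe sets averaged and 0.12 with plain-suffix probe sets. Both shifts were smaller than the within-gene SD. With the floor at the 75th percentile, which left 6 genes, the median was 0.21 for BMP4 minus untreated and 0.43 for BMP4 minus noggin. These 2 medians moved by more than the within-gene SD, and the other 100 list medians under 6 settings moved by less. Over all genes, the counts at least 1.5-fold different moved by over 1.5 times as follows. With probe sets averaged they were 17 against 26 higher for BMP4 minus untreated, 4 against 8 lower for noggin minus untreated, and, between BMP4 and noggin, 10 against 16 lower with BMP4. With the higher floor they were 3 against 6 lower for BMP4 minus untreated, 0 against 1 higher and 1 against 8 lower for noggin minus untreated, and 20 against 44 higher and 6 against 16 lower for BMP4 minus noggin. With no floor they were 64 against 8 lower for noggin minus untreated and 102 against 44 higher for BMP4 minus noggin. Signal near the floor limits Fgfbp3, Flrt3, Dusp4, Postn, Pax6, Stard6, Ank2 and the lowest Fgf4 and Spred1 probe sets.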
